A study of Lemna aequinoctialis with 6 samples.

Results

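The transcripts described here are those of the duckweed Lemna aequinoctialis, which floats on fresh water, whose deposited description named a transposon, a retrovirus-related or other polyprotein, a Copia protein or an RNA-directed DNA polymerase. They were taken from the authors' deposited list of transcripts that differed between plants treated with indole-3-propionic acid (IPA, an indole compound related in structure to auxin) and untreated control plants. Of 5093 transcripts in that list, 56 matched the wording, and 1 with the name of a virus polyprotein was left out. The remaining 55 transcripts, of 81787 in the whole data set, belonged to 49 of 28620 Trinity genes (Trinity assembles transcripts from reads and groups those of a locus as isoforms of a gene). By the element named, 34 were of copia/RE type, 11 of Ty3 type and 10 carried the description RNA-directed DNA polymerase homolog. No description among them named a LINE-type element or a DNA transposon, and the descriptions of the 10 homologs do not give their type.

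Messenger RNA was sequenced in 3 control samples and 3 IPA samples, all given as plant cells of the same species. The labels name neither dose, duration nor strain, nor do they tell whether samples of a group grew apart, so the spread between samples may be technical. The labels' protocols list a DNase step during RNA extraction and a stranded mRNA library kit. Recovered reads per library numbered 30149649 to 45233584, and in every library 1 read was worth 0.0205 to 0.0318 normalised reads. Levels below are normalised read counts, which are not divided by transcript length, so differences are taken between libraries for 1 transcript. Sums and shares of reads over several transcripts, and remarks on low or abundant ones, are likewise not corrected for length.

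Long terminal repeat retrotransposons copy themselves through an RNA that is reverse transcribed and integrated into the genome. Their RNA encodes a Gag protein, which forms the particle, and a Pol polyprotein with protease, reverse transcriptase, RNase H and integrase. The Ty3 (or gypsy) and the copia (or Ty1) superfamilies differ in the order of these Pol enzymes. Plants keep most copies silent with DNA methylation, repressive histone marks and small RNAs, and stress or tissue culture is known to release some families. In the descriptions used here, Ty3-G and Ty3-I are elements of budding yeast, Tf2-1 of fission yeast, copia of Drosophila, RE1 and RE2 of Arabidopsis, and TNT 1-94 of tobacco, while a further pair of Ty3-type elements of Drosophila bear numbers as names, which the plot by element shows. Each name gives the nearest known protein and not the duckweed element itself.

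The list was made on the contrast that is described here. Per the authors' deposited table every member had an absolute log2 fold change of at least 1.01 and an FDR of at most 0.0495, so the differences between IPA and control are given as a description, with no p-value. Of the 55, 40 (72.7%) were lower in IPA and 15 were higher in the authors' deposited table, while over the whole list 49.2% were lower. The member nearest to the list's fold limit was the RE1 transcript DN1867_c1_g1_i13 (log2 fold change -1.01 in the authors' deposited table), followed by the RE2 transcript DN1867_c3_g1_i15 (-1.02). Outside the list, only isoforms of the members' genes were compared. Among these, DN10284_c1_g1_i2 lay nearest to the fold limit in edgeR's quasi-likelihood fit, at 0.999, and was not called there, while DN1867_c3_g1_i16 was called at -0.97.

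Differences below are log2 of IPA over control on the log2(value + 0.5) scale ± SE from a limma fit over all 78722 transcripts that passed a filter on low counts. This scale understates differences of low transcripts. All 55 members passed the filter. The median difference was -0.74 over the members and 0.02 over all transcripts tested. With limma and Benjamini-Hochberg adjustment at 0.05, 22 of the 55 passed, against 8.37% of all transcripts. Of these, 17 were lower in IPA (3.87% of all transcripts) and 5 were higher (4.49%). With edgeR's quasi-likelihood test on recovered reads 23 passed, against 8.12% of all, and with limma and a minimum of 2-fold 13 passed, against 4.8%. The groups did not overlap in 52 of 55 members, against 32.9% of all transcripts. Since the list was chosen on the same contrast, nothing is read from these counts.

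Many of the limma calls changed when 1 library was left out, among the members and over all transcripts. Leaving out a library also makes its group smaller, and the part of either in the changed calls was not tested. Members passing numbered 3 without control 2 (1.93% of all transcripts passed), 8 without IPA 1 (4.53%), 2 without IPA 2 (1.64%) and 8 without IPA 3 (3.18%). They numbered 32 without control 3 (13.2%) and 23 without control 1 (9.19%), against 22 (8.37%) with every library. Scaled by library totals instead, the median of all transcripts moved from 0.02 to 0.25, and 14 members passed as lower and 15 as higher. Of all transcripts 15.0% then passed, and only 15.9% of those were lower, against 46.3% on the deposited scaling. Relative to the median of all transcripts, the median of copia/RE-type members was then -0.82 and that of Ty3-type members -0.81, as compared with -0.76 and -0.77 on the deposited scaling.

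**Figure D1:**
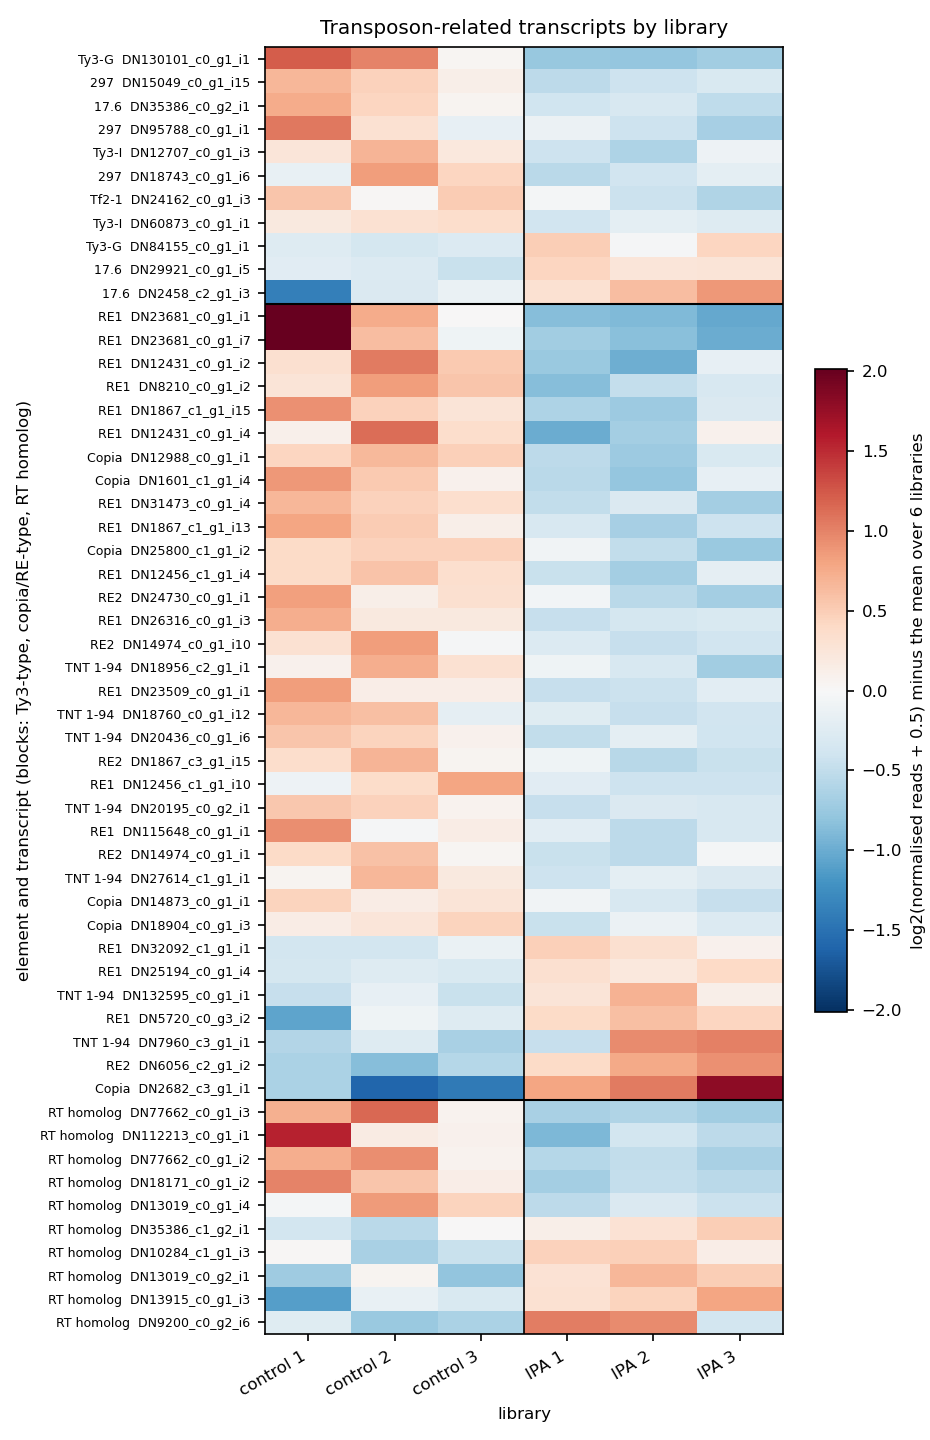
Level of each of the 55 transcripts (rows) in the 6 libraries (columns), as log2(normalised reads + 0.5) minus the transcript's mean over the libraries, in blocks of 11 Ty3-type, 34 copia/RE-type and 10 reverse transcriptase homolog transcripts. The 40 transcripts that were lower in IPA stand at the top of each block and the 15 that were higher at its foot.

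Both superfamilies leaned the same way. Of 11 Ty3-type members 8 were lower in IPA and 3 higher, with a median of -0.75 and a range of -1.50 to 1.20. Of 34 copia/RE-type members 27 were lower and 7 higher, with a median of -0.73 and a range of -1.85 to 2.43. The reverse transcriptase homologs were split evenly, 5 lower and 5 higher, with a median of -0.12. In limma 4 Ty3-type, 13 copia/RE-type and 5 homolog transcripts passed, against 8.37% of all transcripts. The difference between the classes was not tested, because the list was chosen on this contrast. In bulk RNA, fewer cells that express an element and less of its RNA per cell cannot be told apart.

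By element, both Ty3-I transcripts and the only Tf2-1 transcript were lower in IPA. Of the pair of numbered Drosophila elements, one had all 3 of its transcripts lower and the other had 1 lower and 2 higher. Among copia/RE-type elements, 13 of 16 RE1, 4 of 5 RE2, 5 of 7 TNT 1-94 and 5 of 6 Copia protein transcripts were lower. RE1 held 8 of the 13 copia/RE-type limma calls and Copia protein 4. None of the 7 TNT 1-94 transcripts passed in limma or in edgeR's quasi-likelihood test. Of the 7, 6 had a mean level under 1 normalised read. All 7 had an unadjusted limma p under 0.05, but so did all 55 members, which their choice on this contrast nearly fixes. Over all transcripts 20892 of 78722 did.

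**Figure D2:**
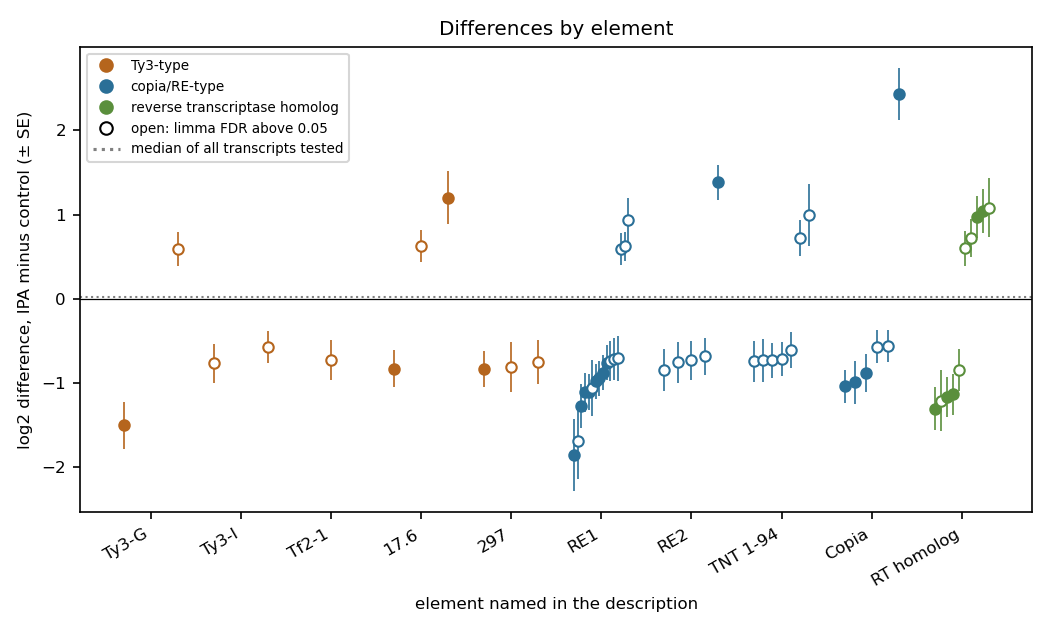
Log2 difference between IPA and control (± SE, n = 3 per group) for each transcript, by the element its description names. Filled points passed limma's FDR of 0.05, open points did not, and the dotted line at 0.02 is the median of all transcripts tested.

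The Ty3-type transcript with the most reads was DN130101_c0_g1_i1, described as Ty3-G Gag-Pol polyprotein. It stood at 27.6, 23.5 and 11.9 in control 1, 2 and 3 and at 6.58, 6.53 and 6.89 in IPA 1, 2 and 3. Every control library lay above every IPA library, and the IPA libraries were close together. The difference was -1.50 ± 0.28, with means of 21.0 ± 8.13 and 6.67 ± 0.198 (SD, n = 3).

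DN15049_c0_g1_i15, of the Drosophila element whose transcripts were all lower, stood at 2.41, 2.04 and 1.49 in control but at 0.776, 0.880 and 0.988 in IPA, a difference of -0.83 ± 0.21. The Ty3-I transcript DN12707_c0_g1_i3 stood at 1.21, 1.81 and 1.17 in control and at 0.575, 0.430 and 0.840 in IPA, a difference of -0.77 ± 0.23 that did not pass in limma. Neither pair of groups overlapped. The other 2 transcripts of that Drosophila element, the other Ty3-I and the Tf2-1 transcript had differences of -0.57 to -0.81. Among them DN95788_c0_g1_i1, named after its values were seen, was the only Ty3-type member whose groups overlapped, with its lowest control library at 0.320 and its highest IPA library at 0.345.

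The 3 Ty3-type members that were higher in IPA were mostly low. DN2458_c2_g1_i3, of the other Drosophila element, stood at 1.39, 3.50 and 3.98 in control and at 5.57, 7.04 and 8.53 in IPA, a difference of 1.20 ± 0.31. It passed in limma and not in edgeR's quasi-likelihood test, and control 1 was its lowest library. DN29921_c0_g1_i5, of the same element, stood at 0.543, 0.509 and 0.389 and at 1.15, 0.942 and 0.964 (0.63 ± 0.19). The Ty3-G transcript DN84155_c0_g1_i1 stood at 0.241, 0.191 and 0.229 and at 0.747, 0.368 and 0.692 (0.60 ± 0.20), opposite in direction to the other Ty3-G transcript. This Ty3-G transcript held 6 to 28 reads per library. Neither it nor DN29921_c0_g1_i5 passed in limma or in edgeR's quasi-likelihood test. The remaining transcript of the Drosophila element, DN35386_c0_g2_i1, named after its values were seen, was lower, at 1.12, 0.795 and 0.503 in control and 0.230, 0.266 and 0.173 in IPA (-0.83 ± 0.22).

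Among copia/RE-type members the reads were concentrated in 1 gene. The RE1 transcripts DN23681_c0_g1_i1 and DN23681_c0_g1_i7 are its 2 isoforms. The first stood at 159, 66.0 and 39.3 in control 1, 2 and 3 and at 21.3, 20.8 and 18.8 in IPA 1, 2 and 3. The second stood at 150.1, 57.5 and 34.9 in control and at 22.6, 20.6 and 18.4 in IPA. In both, control 1 was the highest library by far and the IPA libraries were nearly level. Whether the isoforms share reads was not tested.

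The differences of this RE1 gene were the lowest of the 55 on the log2(value + 0.5) scale, -1.85 ± 0.42 and -1.69 ± 0.45. In the authors' deposited table the low RE1 transcript DN26316_c0_g1_i3, named after its values were seen, was lower still (log2 fold change -2.39, against -2.12 and -1.98). Of the DN23681_c0_g1 isoforms, the first passed in limma, the second did not, and both passed in edgeR's quasi-likelihood test. The first was no longer called by limma without control 2 or without any 1 of the IPA libraries, while the second was called without control 1 or without control 3. Without control 1 the differences of these isoforms were -1.31 and -1.11, and without control 3 they were -2.31 and -2.16. The means were 88.1 ± 62.8 in control and 20.3 ± 1.33 in IPA for the first isoform (SD, n = 3). The share of reads held by the 20 most abundant transcripts of any kind was 29.8, 35.2 and 15.9% for control 1, 2 and 3, as against 8.21, 10.1 and 7.84% for IPA 1, 2 and 3. The part of this imbalance in the results on transposon transcripts was not tested.

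Further RE1 transcripts were lower with less spread. DN1867_c1_g1_i13 stood at 15.8, 12.9 and 9.77 in control and at 7.07, 5.40 and 6.55 in IPA (-0.94 ± 0.21). DN12431_c0_g1_i2 stood at 4.92, 8.40 and 5.74 in control and at 2.07, 1.68 and 3.34 in IPA (-1.27 ± 0.26). DN8210_c0_g1_i2 stood at 2.02, 3.28 and 2.61 in control and at 0.661, 1.00 and 1.19 in IPA (-1.11 ± 0.23). In these 3 every control library exceeded every IPA library, and the highest control was control 1 in the first and control 2 in the others. The RE2 transcript DN1867_c3_g1_i15, from another part of the same Trinity cluster as the first, stood at 1.78, 2.39 and 1.35 and at 1.18, 0.716 and 0.816 (-0.73 ± 0.23) and did not pass. DN12431_c0_g1_i4, the other isoform of the RE1 gene DN12431_c0_g1 and named after its values were seen, differed by -1.06 ± 0.33. This isoform did not pass in limma.

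The copia/RE-type members that were higher in IPA included the largest difference of the 55 on the log2(value + 0.5) scale. The Copia protein transcript DN2682_c3_g1_i1 stood at 5.79, 2.74 and 3.16 in control 1, 2 and 3 and at 16.5, 19.7 and 33.4 in IPA 1, 2 and 3. Its lowest IPA library lay well above its highest control library. The difference was 2.43 ± 0.31, with means of 3.90 ± 1.66 and 23.2 ± 8.98 (SD, n = 3), and it passed in every one of the 14 alternative fits. The RE2 transcript DN6056_c2_g1_i2 stood at 2.44, 2.04 and 2.58 in control and at 5.49, 7.33 and 8.23 in IPA (1.38 ± 0.21). It also passed in all 14. It was the only RE2 transcript that was higher.

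The other members of this class that were higher in IPA differed less or were uneven. The RE1 transcript DN5720_c0_g3_i2 stood at 1.03, 2.51 and 2.15 in control and at 3.65, 4.34 and 3.78 in IPA (0.94 ± 0.26). It did not pass. The TNT 1-94 transcript DN7960_c3_g1_i1 stood at 0.332, 0.541 and 0.297 in control and at 0.402, 1.90 and 2.03 in IPA (0.996 ± 0.36). IPA 1 lay within the control range, so the groups overlapped, and the transcript did not pass in limma. Without IPA 1 the difference was 1.48. The RE1 transcript DN25194_c0_g1_i4, named after its values were seen, held 1, 2 and 2 reads in control and 12, 14 and 16 in IPA. Its control libraries lay under the floor of 3 reads, and its log2 fold change of 2.80 in the authors' deposited table was the highest of the 55.

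Of the reverse transcriptase homologs, the gene DN77662_c0_g1 was lower in both of its isoforms. DN77662_c0_g1_i2 stood at 10.2, 11.8 and 6.22 in control and at 3.79, 4.03 and 3.56 in IPA (-1.16 ± 0.24). DN77662_c0_g1_i3 stood at 8.96, 12.2 and 5.56 in control and at 3.16, 3.28 and 3.04 in IPA (-1.30 ± 0.26). The groups did not overlap, and control 3 was the lowest control library in each.

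DN18171_c0_g1_i2 stood at 3.68, 2.58 and 1.81 in control and at 0.804, 1.00 and 0.939 in IPA (-1.13 ± 0.24). DN112213_c0_g1_i1 stood at 7.97, 2.74 and 2.56 in control and at 1.03, 1.72 and 1.51 in IPA (-1.21 ± 0.37). The latter did not pass in limma and rested on control 1, without which the difference was -0.73.

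The homolog with the most reads, DN9200_c0_g2_i6, went the other way. It stood at 23.5, 16.5 and 17.8 in control 1, 2 and 3 and at 57.9, 54.6 and 21.6 in IPA 1, 2 and 3 (1.08 ± 0.35). IPA 3 lay between the control libraries, so the groups overlapped and the transcript did not pass. Without IPA 3 the difference was 1.54.

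DN13915_c0_g1_i3 was higher in every IPA library, at 3.08, 6.46 and 5.74 in control and 9.05, 10.1 and 12.9 in IPA (1.04 ± 0.26). DN10284_c1_g1_i3 stood at 0.604, 0.191 and 0.297 and at 1.01, 1.02 and 0.692 (0.72 ± 0.23), with groups that did not overlap. It passed neither in limma nor in edgeR's quasi-likelihood test. Within the Trinity cluster DN13019_c0, 2 homolog genes went in opposite directions. DN13019_c0_g2_i1 stood at 2.17, 4.04 and 2.01 in control and at 4.83, 6.47 and 5.68 in IPA (0.97 ± 0.25), while DN13019_c0_g1_i4, named after its values were seen, stood at 0.815, 1.94 and 1.33 and at 0.431, 0.594 and 0.494 (-0.84 ± 0.25). DN13019_c0_g2_i1 passed in limma and not in edgeR's quasi-likelihood test, and DN13019_c0_g1_i4 the reverse. DN13019_c0_g2_i1 was not called by limma without control 1, control 3 or any 1 of the IPA libraries. With isoforms summed, neither DN13019_c0_g2 (0.81) nor DN13019_c0_g1 (-0.85) passed in limma.

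The summed reads of the 55 transcripts rested largely on 1 gene. In CPM (reads scaled to a library total of 1000000) they came to 432, 249 and 225 in control 1, 2 and 3. In IPA 1, 2 and 3 they came to 235, 222 and 217, so the groups overlapped in CPM. On the deposited scaling the sums were 502, 307 and 213 normalised reads in control and 203, 205 and 195 in IPA, without overlap. The RE1 gene DN23681_c0_g1 supplied 61.5, 40.2 and 34.9% of these reads in control and 21.6, 20.1 and 19.1% in IPA. Without it the order turned: the other 53 transcripts summed to 166, 149 and 146 CPM in control and to 184, 177 and 175 in IPA. On the deposited scaling the same 53 transcripts summed to 193, 184 and 139 normalised reads in control and to 159, 164 and 157 in IPA, with groups that overlapped.

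The sums of the classes were as follows. Ty3-type transcripts summed to 33.4, 29.7 and 25.02 CPM in control and to 20.3, 19.6 and 23.0 in IPA, with groups that did not overlap. The copia/RE-type transcripts without DN23681_c0_g1 summed to 80.1, 71.9 and 75.4 in control and to 68.8, 67.8 and 95.5 in IPA, where IPA 3 was the highest of all libraries. On the deposited scaling control 1 was the highest, with 93.2, 88.9 and 71.3 normalised reads in control and 59.6, 62.8 and 85.8 in IPA. The reverse transcriptase homologs summed to 52.5, 47.3 and 46.0 in control and to 94.96, 89.8 and 56.7 in IPA, and DN9200_c0_g2_i6 held most of the reads of IPA 1 and IPA 2 among them. On the deposited scaling the homologs overlapped between the groups, at 61.0, 58.4 and 43.5 in control and 82.2, 83.1 and 50.98 in IPA.

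**Figure D3:**
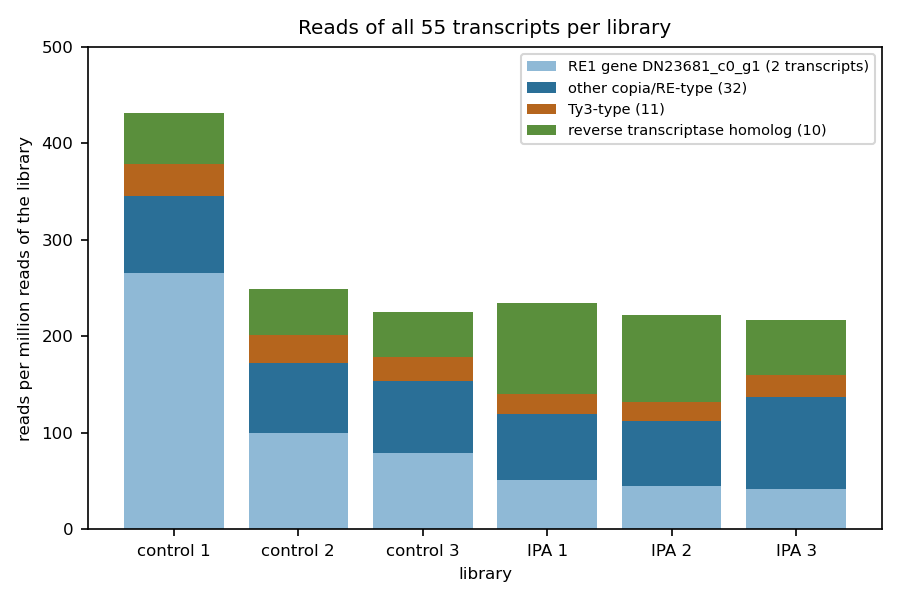
CPM summed over the 55 transcripts, by library, split into the RE1 gene DN23681_c0_g1, the other 32 copia/RE-type, the 11 Ty3-type and the 10 reverse transcriptase homolog transcripts. Control 1 stands highest at 432, through the RE1 gene, and the other 5 libraries lie between 217 and 249.

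Control libraries were more uneven than IPA libraries for these transcripts, as they were over all transcripts tested. Among the 40 members that were lower in IPA, control 1 was the highest library in 21, control 2 in 16 and control 3 in 3. Among the 15 that were higher, IPA 3 was the highest library in 7 and IPA 1 and IPA 2 in 4 each. These counts of highest libraries were not set beside a share of all transcripts. The median coefficient of variation over the members was 36.0% in control and 23.0% in IPA, against 25.2 and 16.9% over all transcripts tested. The members were also lower, with a median mean level of 1.01 normalised reads against 2.68, and the part of this in their variation was not tested. The coefficient was greater in control than in IPA for 34 of 55 members, but for only 1 of 6 Copia protein transcripts.

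Other isoforms of the members' genes were set beside the members, with the limit that isoforms can share reads. Of the 49 genes 24 had a single transcript, and 21 had isoforms beyond the members, 32 in all. Of these isoforms 3 stood in the authors' deposited list under another description. Both isoforms of the Copia protein gene DN1601_c1_g1 among them were described as Secreted RxLR effector protein 161, and the isoform of DN2682_c3_g1 as Uncharacterized mitochondrial protein AtMg00240. Like the Copia protein transcript of its gene, the latter was higher in IPA, at 5.13, 3.69 and 5.15 in control and 14.6, 21.4 and 55.5 in IPA (2.37).

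The other 29 isoforms were not in the list, and 27 of them passed the filter. Of these 27, 20 differed in the same direction as the member of their gene and 7 in the opposite one, with a median of -0.38 where the member was lower and 0.62 where it was higher. Only DN1867_c3_g1_i16, of RE2 description in its sister transcript, passed in limma, at 4.50, 5.03 and 4.92 in control and 3.02, 2.15 and 2.22 in IPA (-0.85 ± 0.19), against 8.37% of all transcripts. Leaving out the listed transcripts removed those the authors had called, so this count is low by construction.

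With isoforms summed per Trinity gene, 18 of the 49 genes passed in limma, 13 lower and 5 higher, against 10.3% of all 27203 genes tested. All 49 kept the direction of their member, which the sum includes. Where the member held a small part of the gene's value, the sum could be nearer to 0 than the member or farther from it. In the Ty3-type gene DN15049_c0_g1 the member held 20.9% of the gene's value and the sum differed by -0.39, and in the Tf2-1 gene DN24162_c0_g1 it held 38.5% and the sum differed by -0.28. In the TNT 1-94 gene DN18956_c2_g1, named after its values were seen, the member held 19.9% and the sum differed by -0.80, against -0.74 for the member, and in the RE2 gene DN1867_c3_g1 it held 27.4% and the sum differed by -0.90, against -0.73. In the Copia protein gene DN2682_c3_g1 both isoforms were higher and the sum differed by 2.47.

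**Figure D4:**
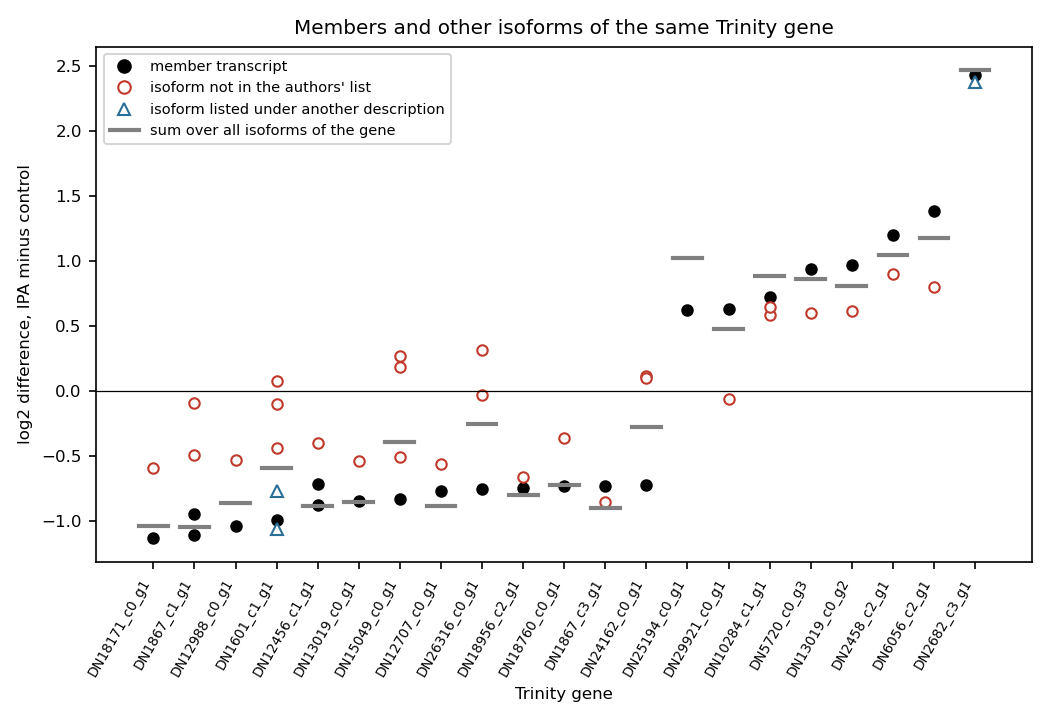
Log2 difference between IPA and control for the members (black) and the other tested isoforms of the same Trinity gene (open circles, or triangles where listed under another description), with the difference of the gene's summed isoforms as a grey bar, for the 21 genes with isoforms beyond the members. Open circles of genes whose member was lower mostly lie nearer to 0 than the member, and the 2 other isoforms of DN25194_c0_g1 did not pass the filter.

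Transcripts described as factors of DNA methylation, histone marks or small RNAs, here the silencing list, went both ways. The wording took in any histone deacetylase, argonaute or methyl-CpG-binding protein, so a role in silencing transposons is not established for each. Descriptions of this kind matched 19 transcripts of 11 genes in the authors' deposited list, which was itself chosen on these samples. In limma 7 of the 19 rose, 4 fell and 8 did not pass (8.37% of all transcripts passed). By sign alone 10 were higher in IPA and 9 lower. The median difference of 0.57 was the smallest of the higher ones, so nothing is read from it. The 7 that rose came from DDM1, RDM1, HDT1, Histone deacetylase 8 and a subunit of RNA polymerase V. The 4 that fell came from argonaute MEL1, RNA-directed DNA methylation 4 and SUVR4. Unlisted isoforms of these genes were not compared, as for the RNA polymerase V subunit, whose gene had 10 isoforms.

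DDM1, a chromatin remodeller that Arabidopsis needs to keep transposons methylated, rose in all 3 IPA libraries, from 107, 125 and 122 in control to 212, 260 and 267 (1.05 ± 0.18). RDM1, a part of the RNA-directed DNA methylation machinery of Arabidopsis, rose from 2.84, 2.77 and 3.36 to 6.66, 7.19 and 5.76 (1.01 ± 0.19). Histone deacetylase HDT1, of a plant-specific family of enzymes that remove acetyl marks from histones, rose from 2.08, 1.40 and 1.90 to 4.97, 5.26 and 5.91 (1.37 ± 0.20). In these 3 the lowest IPA library was well above the highest control library. DDM1 was not called without IPA 2, and RDM1 was not called without control 2 or IPA 2.

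RNA-directed DNA methylation 4, a factor that acts in this pathway in Arabidopsis, was 1 gene with 6 listed isoforms. Its transcript DN1453_c0_g1_i49 fell from 4.59, 3.53 and 3.02 to 1.64, 1.60 and 1.56 (-0.99 ± 0.20). All 6 listed isoforms were lower in IPA and 2 of them passed. The gene had 22 isoforms, and the unlisted ones were not compared. DN1453_c0_g1_i49 was not called without control 2 or without any 1 of the IPA libraries. Named after their values were seen, argonaute MEL1, a germline argonaute of rice, fell from 10.2, 19.6 and 22.2 to 7.99, 8.45 and 7.64 (-0.99 ± 0.26), and SUVR4, a histone methyltransferase of Arabidopsis that acts on transposon chromatin, fell from 2.08, 2.61 and 2.68 to 1.32, 1.13 and 0.989 (-0.84 ± 0.20). Control 1 was the lowest control library in both. The gene of SUVR4 had 6 isoforms and that of MEL1 had 2, of which only the listed ones were compared.

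Host genes thought to derive from transposases, matched in the same list, came to 5 transcripts of 3 genes, of which 2 fell, 1 rose and 2 did not pass, against 8.37% of all transcripts that passed. The zinc finger proteins RICESLEEPER 3 and RICESLEEPER 1, named in rice after transposases of hAT type, fell from 0.573, 0.604 and 0.480 to 0.0575, 0 and 0.0494 (-0.97 ± 0.18) and from 1.93, 0.954 and 0.732 to 0.115, 0.184 and 0.346 (-1.20 ± 0.27). The RICESLEEPER 3 values in IPA are 2, 0 and 2 reads. RICESLEEPER 3 was not called without IPA 2, and RICESLEEPER 1 was not called without control 2, without any 1 of the IPA libraries or with the replicate number as a block. The ALP1-like transcript DN345_c0_g1_i14, related to Harbinger transposases, rose from 6.67, 5.53 and 7.07 to 11.9, 16.0 and 43.1 (1.59 ± 0.40). Its isoform DN345_c0_g1_i5 stood at 12.7, 12.9 and 12.3 and at 19.1, 21.5 and 58.8 (1.17 ± 0.37) and did not pass. In both, IPA 3 was far above the other libraries, and without it the differences were 1.05 and 0.66. DN345_c0_g1_i14 was not called without control 1, control 2 or IPA 2, nor with a pseudocount of 1.

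**Figure D5:**
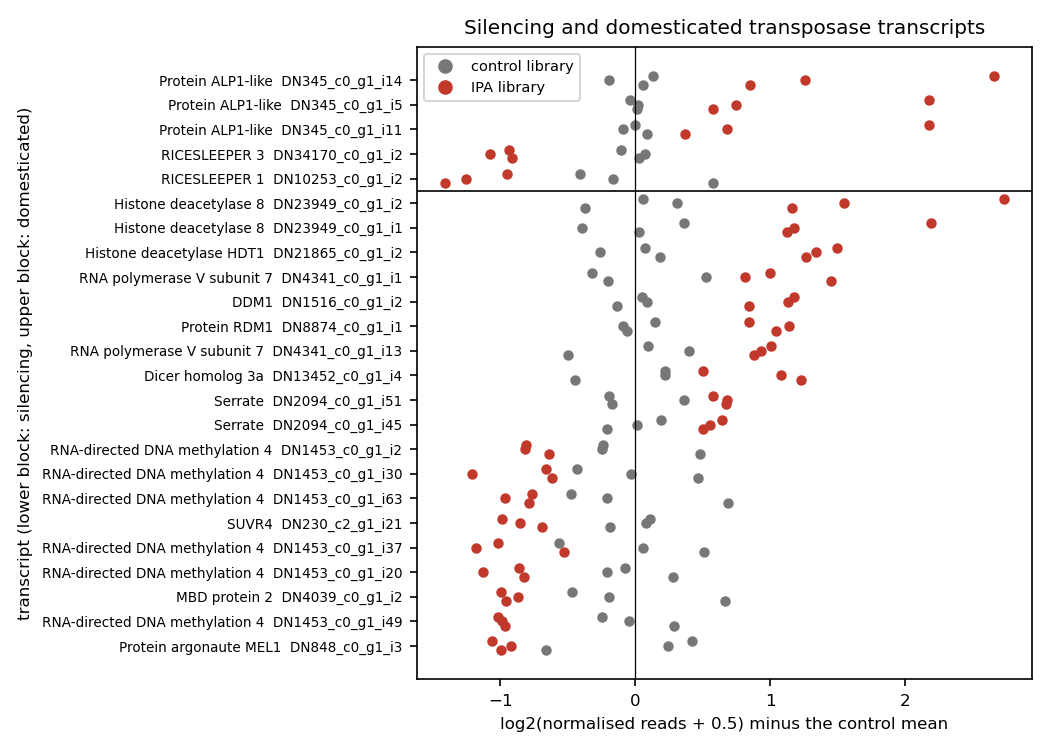
Level of each transcript of the silencing list (lower block) and each domesticated transposase transcript (upper block) in the 6 libraries, as log2(normalised reads + 0.5) minus the mean of the control libraries. Grey points are control and red points IPA libraries. In all but 1 of the 19 transcripts of the silencing list the groups do not overlap, against 32.9% of all transcripts.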

How the data were processed

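Messenger RNA of 3 control and 3 IPA samples was measured, with groups and replicate numbers from the sample titles. The authors deposited a table of normalised read counts, a signal scaled per library, and a list of called transcripts with log2 fold change, log2 CPM, likelihood-ratio score, p-value and FDR, per the file headers. Per the submitters' processing notes, the authors used BWA, featureCounts, edgeR, FastQC and Trimmomatic, with settings not given in the sources used here. All values were whole multiples of 1 read (100% within 0.01 reads), so whole reads were recovered, with totals per library given in the report. The deposited scaling lay within 1.28% of recomputed TMM scaling.

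Transcripts passing filterByExpr of edgeR 4.0.16 (minimum count 10, minimum total 15) were fitted as log2(value + 0.5) with limma 3.58.1 (trend, robust) in R 4.3.3, and p-values were adjusted over all 78722. As a count test, edgeR's quasi-likelihood test on the recovered reads called 6393 transcripts. The fits were tested on simulated data with changes planted only in transcripts of higher read count, so that test does not cover the low members. Alternatives were DESeq2 1.42.0, other pseudocounts, scalings, thresholds and filters, a replicate block and leaving out each library.

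Members and gene lists were chosen with earlier results of these data known. Named members are, per class, the 6 largest differences with a mean of at least 1, the 2 with the highest mean, up to 4 against the class's direction, the 2 nearest the list's limit, and 4 transcripts per gene list. Near-identical element copies can share reads, so which copy differed is uncertain. No sequences of these transcripts were used here.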

Additional observations from a re-analysis of the deposited data

How the results depend on the processing

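Every member kept its sign in all 14 alternative fits, a direction that the choice of members largely fixes. With DESeq2 41 members passed (32 lower and 9 higher) against 13.4% of all transcripts (10358), while 4 members had no adjusted p. With library totals 15 passed as higher and 11817 transcripts passed in all. A limma FDR of 0.01 left 2 members, a count that was not set beside a share of all transcripts, so nothing is read from it. A 2-fold minimum left 13 against 4.8% of all. The median differences of Ty3-type and copia/RE-type members were -1.15 and -1.29 with edgeR's quasi-likelihood test, -1.18 and -1.32 with DESeq2 and -1.04 and -1.15 with a pseudocount of 0.1, whereas a pseudocount of 1 gave -0.54 for both, so the medians followed the pseudocount. Leaving out 1 library at a time, limma passed 2 to 32 members (0 to 26 lower and 2 to 6 higher) and 1293 to 10421 of all transcripts. Between 36 and 39 members were lower at an unadjusted limma p under 0.05, a count that their choice on this contrast largely fixes. Without the most abundant member the mean of summed reads moved from 302 to 225 CPM in control and from 224 to 202 CPM in IPA. The share of deposited values equals the share of reads by construction, and no member's description named a host gene, so that exclusion was not run. Same-numbered samples did not deviate together (correlations of -0.09, 0.08 and -0.13). With the replicate number as a block 17 members (12 lower and 5 higher) and 4377 of all transcripts passed. Of the results on single named transcripts under alternatives, 353 kept their side of the threshold, 67 lost it, 28 gained it and none changed sign. Low depth limits members near the floor of 3 reads, which lay between 0.0614 and 0.0954 normalised reads.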

Other observations

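One transcript described as LINE-1 reverse transcriptase homolog, DN41716_c0_g1_i3, lay outside the wording that chose the members. It stood at 1.21, 3.24 and 3.32 in control 1, 2 and 3 and at 1.64, 0.716 and 0.914 in IPA 1, 2 and 3 (-0.91 ± 0.34), with groups that overlapped at control 1 and IPA 1.

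In the Trinity cluster DN35386, whose Ty3-type transcript was lower in IPA, the reverse transcriptase homolog DN35386_c1_g2_i1 held 2, 0 and 10 reads in control and 10, 19 and 21 reads in IPA (0.60 ± 0.21), and its scaled levels did not overlap between the groups.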
